A study of Mus musculus with 10 samples.

Results

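The protocadherin beta cluster is a tandem array of 22 single-exon genes, Pcdhb1 to Pcdhb22, on mouse chromosome 18. It was taken here as the CpG cytosines of the deposited count table that lie, in the mm10 build, from 14998 bp before the start of Pcdhb1 to 98581 bp after the end of Pcdhb22. This interval held 373 of the 2391795 cytosines of the table (207 plus-strand, 166 minus-strand), the first at 37265223 and the last at 37619028. The samples were whole embryos at embryonic day 7.5, of which 5 were labelled arsenic and 5 control, profiled by reduced representation bisulfite sequencing (RRBS), in which a restriction digest enriches CpG-rich fragments and bisulfite separates methylated from unmethylated cytosines. The sources used here give no arsenic dose, route or timing, no strain and no sex. The table numbers its libraries only from 1 to 10, and these numbers match no arsenic or control embryo of the labels. Every value below therefore describes the 10 libraries together, and none bears on an effect of arsenic.

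Clustered protocadherins are cadherin-superfamily adhesion proteins of the neuronal surface. Each neuron switches on a small and varied set of the promoters, which gives its membrane an identity that neurites use to tell self from non-self. Alpha and gamma genes splice a large variable first exon onto constant exons, whereas a beta gene encodes its whole protein, with cadherin repeats, a membrane span and a short cytoplasmic tail, in a single exon. CTCF binds the promoters when they are unmethylated, and methylation there, laid down in the early embryo largely by Dnmt3b, is tied to a silent promoter. The clusters are known to be transcribed toward higher mm10 coordinates; the annotation used here gives no strand, so the lower coordinate was taken as the start of each gene from that general knowledge.

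A methylation level is the percentage of reads at a cytosine that were methylated. Levels of a set are means over its cytosines, given as a pooled level with the counts of all 10 libraries summed at each cytosine, and as the lowest, median and highest library. The promoter side ran from 1000 bp before to 200 bp after the annotated start, and the coding body from there to the annotated end. The body thus includes any untranslated part of the exon. Coverage was at least 10 reads in every library by the construction of the table, and the median over the cluster's cytosines was 27 to 42 reads in a library. Summed over the cluster, a library had 13736 to 19467 reads, with a read counted anew at each CpG it covers.

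Methylation of the cluster stood in 3 tiers: lowest on the promoter sides, intermediate in the coding bodies and highest outside the genes. The 37 promoter-side cytosines had a pooled level of 21.3%, with a lowest library of 18.8%, a median of 21.1% and a highest of 23.6%. The 207 cytosines of the coding bodies were at 38.7%, from 36.0% over a median of 39.2% to 40.8%. The 129 cytosines outside the genes were at 56.7%, from 52.0% over a median of 56.4% to 60.7%. The ranges of the libraries did not overlap between the tiers. The pooled difference of promoter sides minus bodies was -17.4 points. The differences between the tiers thus exceed the spread between the libraries, but the promoter and body cytosines come partly from different genes. The promoter-side level was 11.2% with a coverage minimum of 20 reads, which left 10 cytosines, all of Pcdhb5, and 13.7% over 9 CpGs with the strands merged. Of these 9 CpGs, 8 were of Pcdhb5. Promoter sides minus bodies then came to -29.7 and -23.7 points. Both settings set mainly the Pcdhb5 promoter side against the bodies of many genes. They cannot show whether the order of these tiers holds over the genes.

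**Figure D1:**
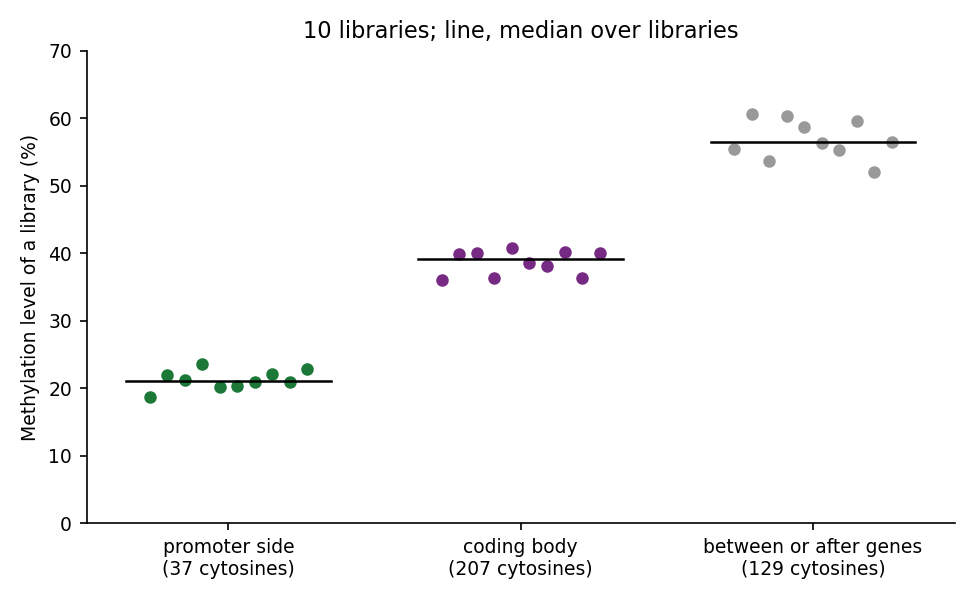
Methylation level of each of the 10 libraries (percent, y axis) on the promoter sides, in the coding bodies and outside the genes of the beta cluster; each point is a library, in the table's order from left to right, and lines are medians. Promoter sides lie between 18.8% and 23.6%, bodies between 36.0% and 40.8%, and cytosines outside the genes between 52.0% and 60.7%.

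Over all 373 cytosines the pooled level was 43.2% (40.2% to 45.3% over the libraries), and the autosomal cytosines of the table averaged 41.6% (40.3% to 42.8%). Fewer of its cytosines than of the autosomal ones stood at either end of the scale. Under 20% were 45 cytosines (12.1%), against 33.4% of the autosomal ones, and over 80% were 4 (1.07%), against 10.003%. At 126 CpGs both strands were measured. The strands differed by a median of 3.36 points, and the largest gap was 20.6 points, at a CpG of the Pcdhb5 promoter side.

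**Figure D2:**
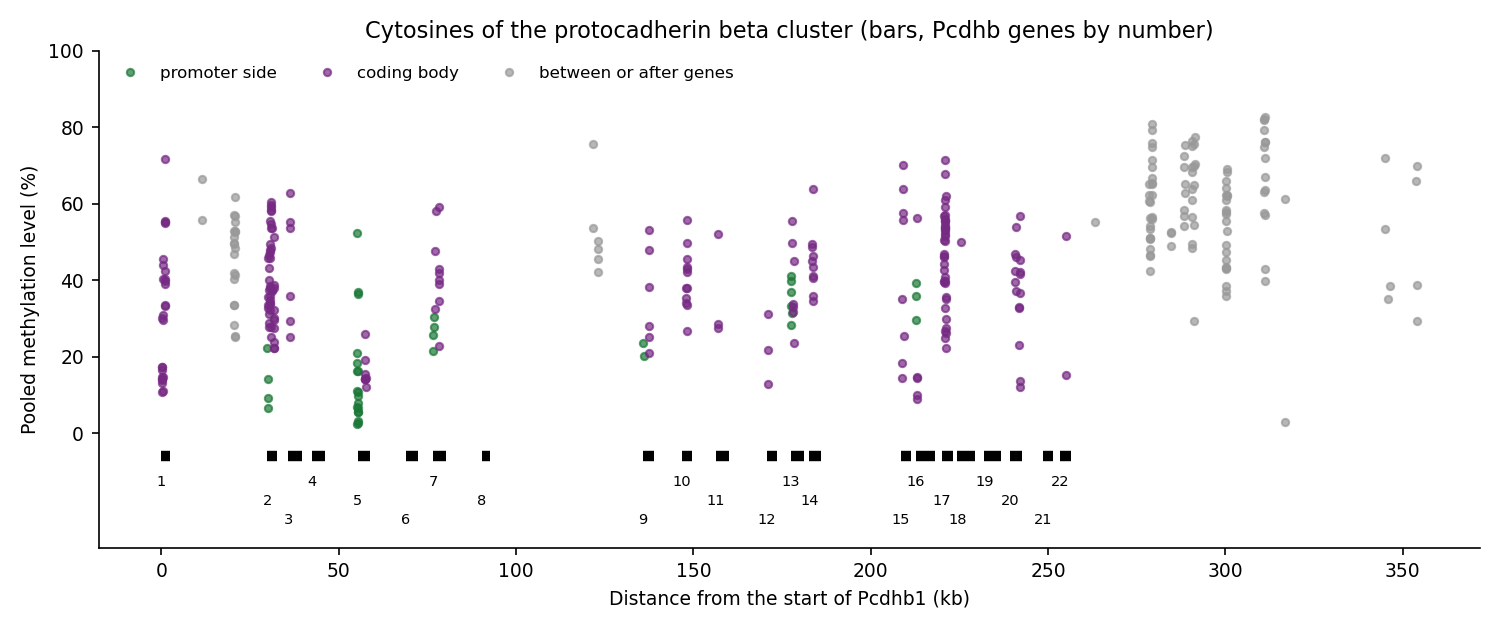
Pooled methylation level (percent, y axis) of the 373 cytosines against distance from the start of Pcdhb1 (kb, x axis), coloured by promoter side, coding body or outside the genes; black bars mark the 22 genes, with their Pcdhb numbers. Measured cytosines come in separate patches, and the patches after Pcdhb22 lie above most of those within genes.

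The assay reached the genes unevenly. Of the 22 genes, 17 had at least 1 measured cytosine, all of them in the body, and 6 also had some on the promoter side. Pcdhb4, Pcdhb6, Pcdhb8, Pcdhb19 and Pcdhb21 had none. The same was true of Gm18529 and Gm20162, annotated pseudogenes lying between the beta genes. A level was taken for a gene side with at least 3 cytosines, which left 5 promoter sides and 15 bodies. With cytosines no more than 150 bp apart joined, the cluster consisted of 52 patches, of which 38 had at least 3 cytosines. Among those 38, 3 had levels under 20%, 31 had levels from 20 to 60%, and the other 4, all after Pcdhb22, had levels over 60%.

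The promoter sides fell between 13.0% and 35.2%, and were neither unmethylated nor fully methylated. Pcdhb2 (37294840 to 37297614) had the lowest, at 13.0% over 4 cytosines lying 31 to 115 bp after the start. Its lowest, median and highest libraries were at 6.94%, 13.1% and 19.5%, and the pooled levels of the 4 cytosines ran from 6.53% to 22.2%.

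Pcdhb5 (37320381 to 37323913) had the best measured promoter side, with 18 cytosines from 200 bp before to 81 bp after the start and a pooled level of 15.0%. Libraries 1 to 10 were, in that order, at 12.3%, 16.7%, 14.3%, 15.3%, 16.2%, 10.6%, 16.6%, 16.6%, 11.6% and 18.2%. No library stood apart, and the ranges of Pcdhb2 and Pcdhb5 overlapped. Within the Pcdhb5 promoter side the pooled levels of single cytosines ran from 2.27% to 52.5%. The cytosine at 2.27% lay 183 bp before the start on the minus strand, with 7 methylated of 308 reads (95% Wilson interval 1.11% to 4.62%). The one at 52.5% lay 200 bp before the start on the plus strand, so the highest and the lowest cytosine lay close together. Such intervals cover counting error only and are too narrow where a DNA fragment was counted more than once.

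The other 3 promoter sides were higher. Pcdhb7 (37341702 to 37345207) was at 26.4% over 4 cytosines, and its libraries spread widely, from 6.25% in library 7 over a median of 27.4% to 44.1% in library 9, with 655 reads in all. Pcdhb16 (37477768 to 37483038) was at 34.9% over 3 cytosines, from 25.2% over 34.0% to 44.7%. Pcdhb13 (37442517 to 37446209) was at 35.2% over 6 cytosines, from 31.1% over 34.9% to 44.3%. Neighbours in this order overlapped in their library ranges, in all 4 steps. Between the ends of the order there was no overlap: the highest library of Pcdhb2 and of Pcdhb5 lay below the lowest library of Pcdhb16 and of Pcdhb13. Pcdhb9 had only 2 promoter-side cytosines, at a mean of 21.9%.

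Set against the genome, these promoter sides were high. Over 9660 autosomal protein-coding genes with a strand in the RefSeq promoter table and at least 3 cytosines in the same window, the median level was 1.67%. Of those genes, 81.9% lay below the Pcdhb2 value, 8.45% between the Pcdhb2 and Pcdhb13 values, and 9.69% above the Pcdhb13 value. The genes of chromosome 18 are not among the 9660. Protocadherin genes outside the clusters, which also encode neuronal adhesion proteins, were low: all 5 of 11 that could be measured, Pcdh7, Pcdh8, Pcdh9, Pcdh17 and Pcdh18, were between 0.620% and 8.59%. Of 13 regulators of the clusters, including the insulator protein gene Ctcf, the silencer Smchd1 and the methyltransferase genes, 8 were measured, with a median of 1.15% and a range of 0.701% to 14.0%. The beta levels rest on 3 to 18 cytosines a gene, and those of these 2 lists on 12 to 80. Neither CpG density nor the number of measured cytosines was matched in these comparisons, and their part was not tested.

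The coding bodies ran from 16.2% to 46.3%. Of the 15 bodies with a level, 11 were between 35 and 47%, with a median over the 15 genes of 38.9%. Pcdhb17 (37485021 to 37488290) was the highest, at 46.3% over 38 cytosines lying 529 to 1220 bp after the start, with libraries from 39.3% over 46.9% to 52.0%. Pcdhb14 (37447657 to 37451094) followed at 44.9% over 10 cytosines, from 38.2% over 45.9% to 50.2%, and Pcdhb3 (37300799 to 37304585) at 43.6% over 6 cytosines, from 31.9% over 43.1% to 51.1%. These high bodies sit at different places of the array.

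At the other end, Pcdhb5 was at 16.2% over 8 cytosines, with libraries from 8.06% over 15.1% to 27.3%. All 8 lay in a stretch 2138 to 2162 bp after the start, far from the promoter side of the same gene, and each was between 12.1% and 25.9%. Pcdhb16 was at 20.8% over 5 cytosines (12.1%, 19.5% and 29.5% in the lowest, median and highest library), and Pcdhb12 (37435621 to 37438654) at 21.9% over 3 cytosines (13.3%, 19.3% and 37.3%). With only CpGs read on both strands, and these merged, the Pcdhb16 body was at 11.4% over 2 CpGs. The Pcdhb5 body stayed below the lowest library of Pcdhb17, Pcdhb14 and Pcdhb3 in all 10 libraries. In the order of the 15 bodies, however, all 14 pairs of neighbours overlapped in their library ranges, so most of the order is not resolved. The widest range was that of Pcdhb11, which, with 3 cytosines and 879 reads, ran from 10.4% in library 1 to 62.9% in library 8 around a pooled level of 36.0%.

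**Figure D3:**
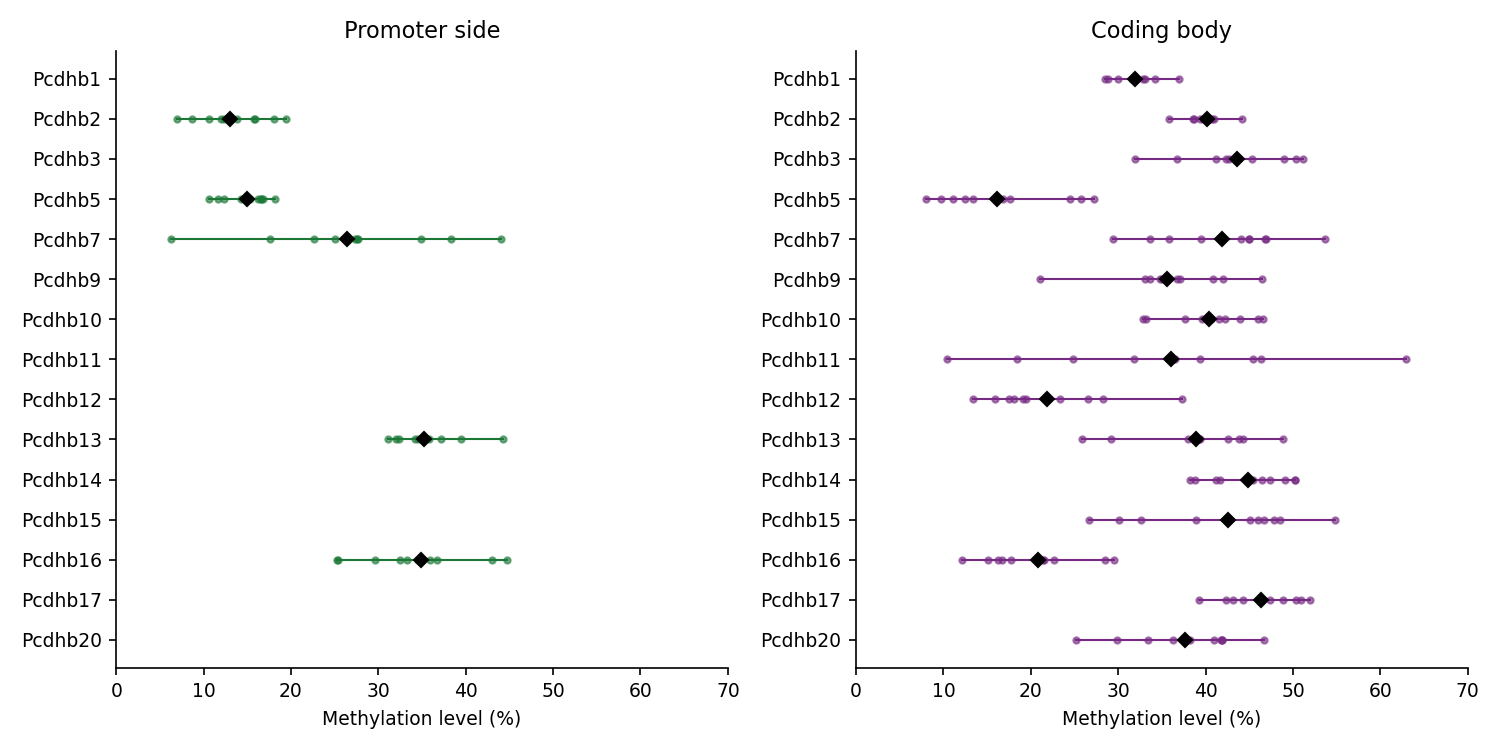
Methylation level (percent, x axis) of the promoter side (left) and coding body (right) of the genes with at least 3 cytosines, in genomic order from top to bottom; small points are the 10 libraries, lines their range and black diamonds the pooled level. Promoter sides run from 13.0% in Pcdhb2 to 35.2% in Pcdhb13, and 11 of the 15 bodies lie between 35 and 47%, while those of Pcdhb5, Pcdhb12, Pcdhb16 and Pcdhb1 lie lower.

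Within single genes the contrast of promoter side and body varied. The 5 genes with a level on both sides allow it to be read free of differences between genes, but not of differences in position. Body cytosines lay 318 to 1888 bp after the start in Pcdhb2 and 2138 to 2162 bp after it in Pcdhb5. In Pcdhb16 they lay 297 to 405 bp after it. The part of this distance in the contrasts was not tested. In Pcdhb2 the promoter side minus the body was -27.1 points, and the promoter side was lower in 10 of 10 libraries (-33.5 to -17.7 points). In Pcdhb7 the difference was -15.5 points, with the promoter side lower in 9 of 10 libraries. In Pcdhb13 it was -3.65 points, with the promoter side lower in 8 of 10. In Pcdhb5 it was -1.19 points, with the promoter side lower in 5 of 10 libraries, so no difference was resolved. In Pcdhb16 it was 14.1 points, with the promoter side above the body in 10 of 10 libraries (6.45 to 21.7 points). With each gene given the same weight, the mean of the 5 promoter sides minus the mean of all 15 bodies came to -11.02 points. With each cytosine given the same weight it was -17.4 points. Both values include bodies of genes without a promoter-side level, so neither is a contrast within genes.

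Pcdhb1 (37264998 to 37267454), known as the beta gene whose promoter lacks the conserved sequence element of the others, had no measured cytosine on the promoter side, but its first patch lay just inside the gene. The 16 cytosines 225 to 352 bp after the start were at 22.8%, and the 10 cytosines 893 to 1034 bp after it were at 46.6%. The libraries ran from 18.2% to 27.8% in the first patch and from 42.2% to 51.7% in the second, without overlap.

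In Pcdhb16 the patch nearer the start was the higher one, but its patches lay at other distances from the start than those of Pcdhb1. The 3 cytosines 71 to 107 bp after the start were at 29.6% to 39.3%. The next 4, from 297 to 318 bp, were at 8.997%, 14.6%, 9.89% and 14.4%, and the last, at 405 bp, was at 56.3%. The low values thus sat in 2 neighbouring CpGs, on both strands of each.

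Pooled over genes by distance from the start, beta methylation was low around the start, highest further into the exon and lower again beyond. It was at 18.5% (16.1% to 22.8% over the libraries) over the 20 cytosines before the start, which belonged to 4 genes. It was at 24.5% (21.2% to 26.9%) from 0 to 200 bp, 25.9% (23.5% to 28.7%) from 201 to 400 bp and 40.9% (37.0% to 45.1%) from 401 to 800 bp. The highest level was 46.5% (43.6% to 50.1%) from 801 to 1200 bp, over 62 cytosines of 5 genes, and from 1201 to 2500 bp it was 35.2% (29.9% to 38.0%). The genes behind each distance class differ, so this profile mixes distance with gene.

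The alpha and gamma clusters flank the beta cluster, and their variable exons were read over the same distances in the same libraries. In the exon bodies, taken here from 201 to 2500 bp after the start, the mean over beta cytosines was higher than that of both. Beta bodies were at 38.8% over 198 cytosines of 17 genes, against 21.0% in alpha over 410 cytosines of 11 genes and 23.2% in gamma over 902 cytosines of 22 genes. The difference was 17.8 points to alpha (14.7 to 19.9 over the libraries) and 15.6 points to gamma (12.2 to 18.03), positive in 10 of 10 libraries, and the library ranges of beta did not overlap with those of either. The gap was widest from 401 to 800 bp, at 25.1 points to alpha (20.2 to 29.5) and 22.5 points to gamma (18.4 to 25.9). From 1201 to 2500 bp it was 3.80 points to alpha (-2.13 to 8.01) and 6.43 points to gamma (0.308 to 10.2), and there the library ranges overlapped. By gene the bodies overlapped. The 15 beta genes ran from 16.2% to 46.3%, 11 alpha genes from 13.1% to 30.8% and 22 gamma genes from 4.98% to 47.8%. The library ranges do not cover this spread over genes. With each gene given the same weight, beta was 14.9 points above alpha and 10.8 points above gamma. CpG density was not matched between the clusters, and its part in these differences was not tested. Beta had the fewest measured cytosines per annotated gene.

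Over the whole promoter side the beta mean was above that of gamma, but before the start the library ranges overlapped. No stable difference to alpha was found. Beta promoter sides were at 21.3% over 37 cytosines of 6 genes, against 17.4% in alpha over 126 cytosines of 7 genes and 9.83% in gamma over 171 cytosines of 14 genes. The difference to gamma was 11.4 points (9.64 to 13.3 over the libraries, positive in 10 of 10), and it was 3.41 points with a coverage minimum of 20 reads. Before the start it was 3.05 points (-2.62 to 7.76, positive in 8 of 10), and from 0 to 200 bp 16.2 points (12.9 to 19.0). Of the promoter-side cytosines, 20 of 37 in beta and 36 of 171 in gamma lay before the start. The difference to alpha was 3.84 points (-2.11 to 8.49, positive in 9 of 10). It was -6.45 points with a coverage minimum of 20, where the 10 beta cytosines left were all from Pcdhb5, -2.42 points with the strands merged, and 7.34 points with each gene given the same weight. By gene the promoter sides overlapped: the 5 beta genes ran from 13.0% to 35.2% with a median of 26.4%, 7 alpha genes from 7.58% to 32.0% with a median of 15.1%, and 13 gamma genes from 2.10% to 32.6% with a median of 8.70%.

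**Figure D4:**
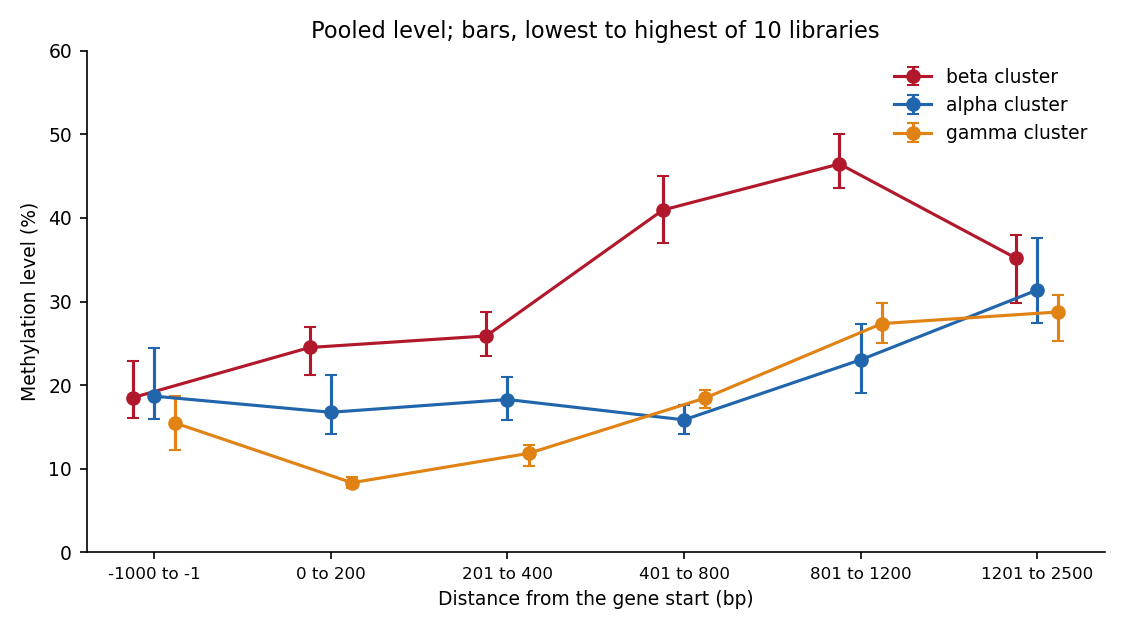
Pooled methylation level (percent, y axis) in classes of distance from the gene start (bp, x axis; negative values lie before the start) for the beta, alpha and gamma clusters; bars run from the lowest to the highest of the 10 libraries. Beta lies above alpha and gamma from 0 to 1200 bp without overlap, most clearly from 401 to 800 bp, and overlaps with both before the start and from 1201 to 2500 bp.

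Beta genes arose by duplication, and some measured cytosines recur at the same spacing in different genes. These gene pairs were chosen after their positions and levels had been seen, by sliding the offsets of a gene along those of another by up to 120 bp, and without the sequence they are not shown to be equivalent positions. Pcdhb7 and Pcdhb9 shared 5 minus-strand offsets, from 1551 bp in Pcdhb7 and 1552 bp in Pcdhb9. Their levels were 34.5%, 22.9%, 40.1%, 43.0% and 59.1% in Pcdhb7, and 28.0%, 20.9%, 25.2%, 38.2% and 53.2% in Pcdhb9. The second offset was the lowest and the last the highest in both genes.

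Pcdhb2 and Pcdhb17 shared 7 offsets with a shift of 4 bp, and their levels differed by a median of 5.79 points and at most 12.04 points. The CpG at 1013 bp in Pcdhb2 was at 25.2% and 27.8% on its strands, and the one at 1009 bp in Pcdhb17 at 26.7% and 24.8%. The next shared CpG was at 58.0% and 53.7% in Pcdhb2 and at 52.2% and 60.9% in Pcdhb17. Pcdhb1 and Pcdhb16 shared the 4 cytosines of a pair of CpGs, 234 to 255 bp after the start in Pcdhb1 and 297 to 318 bp after it in Pcdhb16, and their levels differed by a median of 3.14 points and at most 5.09 points. Pcdhb11 and Pcdhb12 shared 3 offsets, at 28.4%, 27.4% and 52.2% in Pcdhb11 and at 21.7%, 12.9% and 31.2% in Pcdhb12. Levels at shared offsets were not close in every pair. Over the pairs with at least 3 shared offsets, the median difference ran from 1.69 points in Pcdhb1 and Pcdhb17 to 17.02 points in Pcdhb2 and Pcdhb14. It was 15.9 points in Pcdhb1 and Pcdhb2 and 16.3 points in Pcdhb2 and Pcdhb3. The largest difference at an offset was 30.6 points, in Pcdhb1 and Pcdhb17. Reads from near-identical stretches can be placed in the wrong gene, and this was not tested.

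Outside the genes the mean level over cytosines was higher after Pcdhb22 than between the genes. The 101 cytosines after the end of Pcdhb22 were at 59.1% (54.4% to 64.1% over the libraries), and the 28 cytosines between genes at 47.9% (43.3% to 52.5%). These ranges did not overlap. The 4 patches over 60% were at 37544184 to 37544392 (68.7%, 12 cytosines), 37575995 to 37576127 (67.8%, 15 cytosines), 37553396 to 37553730 (64.3%, 8 cytosines) and 37555505 to 37555627 (63.2%, 9 cytosines). Between the genes, the patch of 20 cytosines at 37285411 to 37285696, in the gap between Pcdhb1 and Pcdhb2, was at 45.2% (40.8% to 50.5%). It held 20 of the 28 cytosines between genes. The other patches there were at 61.1% and 64.6%, with 2 cytosines each, and at 46.5%, with 4. Single patches after Pcdhb22 ran from 32.2% to 73.9%, so the patches overlapped. The library ranges do not cover this spread over patches.

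A single cytosine after Pcdhb22 departed from its surroundings. At 37581944, on the plus strand, 20 of 660 reads were methylated in the pooled counts (3.03%, 95% Wilson interval 1.97% to 4.63%), and the libraries ran from 0% to 8.77%. The nearest other measured cytosine, at 37581794, was at 61.3%. This cytosine was singled out after the values had been seen.

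How far single cytosines differed between the libraries was close to the rest of the genome. Homogeneity of the 10 libraries was tested by chi-square at all autosomal cytosines with a pooled level of 5 to 95%, with adjustment after Benjamini and Hochberg. The test called 108 of the 369 tested cytosines of the cluster at an adjusted p under 0.05. That is 29.3%, against a background of 25.4% of all cytosines tested. With counts halved, as if each fragment had been counted in both read mates, 0 of the 369 were called, against a background of 0.0867%, and 31 (8.40%) had an unadjusted p under 0.05, against 6.502% over all cytosines tested. From its lowest to its highest library, a cytosine of the cluster ranged over a median of 30.7 points, and a cytosine of the whole tested set over 28.1 points.

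Among the parts of the cluster, 2 of 34 promoter-side cytosines (5.88%) were called with counts as deposited. In the bodies 63 of 207 (30.4%) were called and outside the genes 43 of 128 (33.6%), against the background of 25.4%. Promoter-side cytosines were read less deeply, with a mean coverage of 21.6 to 32.0 reads in a library against 38.0 to 52.0 in the bodies, and the part of depth in the lower count was not tested. The lowest adjusted p was at 37505768 in the Pcdhb20 body (adjusted p = 4.50e-06 by the chi-square test), where the libraries ran from 14.3% to 85.7% around a pooled level of 46.97%. With counts halved, the adjusted p of this cytosine was 0.268 by the chi-square test. None of the calls in the cluster can be read as a difference between arsenic and control embryos, because no library can be assigned to either group.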

How the data were processed

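Raw counts of reads at each CpG cytosine were deposited, as coverage, methylated and unmethylated reads of 10 libraries, per the file headers, which follow methylKit. Trim Galore, Bismark, methylKit and mm10 are named in the submitters' processing notes; they give no versions, settings or deduplication. All 30 count columns carry only a library number and could be matched to no sample, so no comparison of groups and no test with libraries as replicates was made. Genes came from RefSeq (GRCm38.p6). Levels, medians and ranges were computed with Python 3.11.15, numpy 2.4.6 and pandas 2.3.3, and the chi-square test (9 degrees of freedom) with scipy 1.17.1, after it had been tested on simulated data. For alpha and gamma genes the body ended 2500 bp after the start. All Pcdhb genes were to be named or counted, with full values for those at the ends and middle of each order. Members, gene lists and tests were chosen with earlier results of these data known. Alternatives were a coverage minimum of 20, read weighting, merged strands, a promoter side from 500 bp before the start and leaving out each library; gene weighting and leaving out the C-type alpha and gamma genes were chosen after seeing the data.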

Additional observations from a re-analysis of the deposited data

Results flagged for a closer look

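Of 33 results checked for a library apart from the other 9, 1 was marked by the size of its gap. The Pcdhb9 body was at 21.1% in library 4, and the nearest of the other libraries was at 33.1%, a gap of 0.472 of the whole range. This level rests on 6 cytosines, the 10 libraries mix arsenic and control embryos, and chance marks about 1 in 20 such sets.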

How the results depend on the processing

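No paired analysis was possible because the columns carry library numbers that match no embryo of the labels. With a coverage minimum of 20 the promoter side was at 11.2% (10 cytosines), the body at 40.9%, promoter minus body at -29.7 points, beta minus gamma at 3.41 points on promoter sides and 17.5 points in bodies, and beta minus alpha on promoter sides turned to -6.45 points. With strands merged the promoter side was at 13.7%, promoter minus body at -23.7 points, beta minus gamma on promoter sides at 6.09 points, and beta minus alpha there turned to -2.42 points. Read weighting put the promoter side at 19.6%, and a promoter side from 500 bp before the start put beta minus gamma there at 12.8 points. With genes weighted alike, promoter sides were at 24.9%, bodies at 35.9% and their difference at -11.02 points; beta minus alpha was 7.34 points on promoter sides and 14.9 points in bodies, and beta minus gamma 14.1 and 10.8 points. Without the C-type genes beta minus gamma was 9.59 points on promoter sides and 13.1 points in bodies. Halved counts left 0 heterogeneous cytosines, and leaving out each library gave 93 to 104. The cause of these shifts was not tested. Leaving out each library moved no level or difference by more than the SD over the libraries. Under the other settings, 63 values of single genes moved by less than that SD. This count includes all single-gene values with a promoter side from 500 bp before the start. These could not move, as no beta promoter-side cytosine lay more than 200 bp before the start. The promoter side of Pcdhb5 moved by more than the SD (11.2% with a coverage minimum of 20, 10.8% with strands merged). So did the bodies of Pcdhb20 (47.5% with that minimum), Pcdhb1 (28.7% with strands merged) and Pcdhb16 (11.4% with strands merged). Promoter sides rest on 9597 reads over 37 cytosines, and 5 of 22 genes had a promoter-side level.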
